A study of Mus musculus with 4 samples.

Results

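Complement is a set of plasma and cell surface proteins that marks targets for uptake or lysis and recruits inflammatory cells. C1q opens the classical pathway, lectins such as ficolins open the lectin pathway, and properdin supports the alternative pathway. All converge on C3 and end in the terminal components, while membrane proteins such as CD55 and CRRY restrain the cascade on the body's own cells. In the spleen, resident macrophages are a known source of C1q, and B cells carry complement receptors and regulators. A list of 9 complement genes was chosen with earlier results of these data known. Their transcripts were followed here: C1qa, C1qb, C1qc, C3, C4b, C6, Cfp, Cd55 and Cr1l. They were found by symbol among the 41214 genes of the count table, and all 9 were present.

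RNA-seq had been made from unstimulated B220+ splenocytes of MIZ-1WT and MIZ-1DPOZ mice, with 2 libraries per genotype described as biological duplicates. MIZ-1DPOZ mice carry a Miz-1 allele with a floxed POZ domain together with MB1-Cre, whose expression follows the Cd79a (Mb1) promoter and is therefore largely limited to the B lineage. Both lines are on a C57BL/6 background, and no treatment was given. The sources used here do not say whether the MIZ-1WT animals carried MB1-Cre, give one age range for the mice of the whole study, and do not state how many mice went into a library. Cells were enriched with a B220 antibody and magnetic beads rather than sorted, so cells held along with the B cells may also contribute RNA. Zbtb17, the gene of MIZ-1 (chromosome 4, 141444654 to 141467930, GRCm38), gave 2087 and 1946 counts in MIZ-1WT and 1774 and 1669 counts in MIZ-1DPOZ. Its log2 fold change of MIZ-1DPOZ over MIZ-1WT was -0.32 (standard error 0.06, edgeR adjusted p = 0.00857). Gene counts sum all exons and cannot show the loss of the POZ exons, and reads of Spen, which lies across Zbtb17 on the other strand, may be included.

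Each library held between 43026814 and 46387209 counts on genes. Levels are given as CPM, counts scaled to a common library total after TMM normalization. Both genotypes were compared by the quasi-likelihood test of edgeR, and p-values were adjusted by Benjamini-Hochberg over all 14554 genes tested. A gene was called when its adjusted p was under 0.05. Across all tested genes 40.0% were called, 21.1% higher and 18.9% lower in MIZ-1DPOZ, with a median log2 fold change of -0.01. The libraries also differed in sex markers: Xist reached 1.12 and 1.43 CPM in the MIZ-1WT libraries and 801 and 930 CPM in the MIZ-1DPOZ libraries, and 4 Y-linked genes together gave 848 and 844 CPM against 38.1 and 39.3 CPM. Sex of the mice and genotype cannot be told apart in any of the comparisons that follow.

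Of the 9 complement genes, 7 were higher in MIZ-1DPOZ (C1qa, C1qb, C1qc, C3, C4b, C6 and Cfp), 1 was lower (Cd55), and Cr1l was not called. This is to be read beside the 21.1% of all tested genes that were higher and the 18.9% that were lower. All 9 were tested and had at least 10 counts in every library. The 7 genes that rose encode secreted components or stabilizers of the cascade, and Cd55 and Cr1l encode membrane regulators. The genotypes did not overlap in any of the 9, which 74.8% of all tested genes shared, so the lack of overlap is not particular to these genes. Their median log2 fold change was 1.73. In bulk RNA, more or fewer cells of a type and more or less RNA per cell cannot be told apart.

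**Figure D1:**
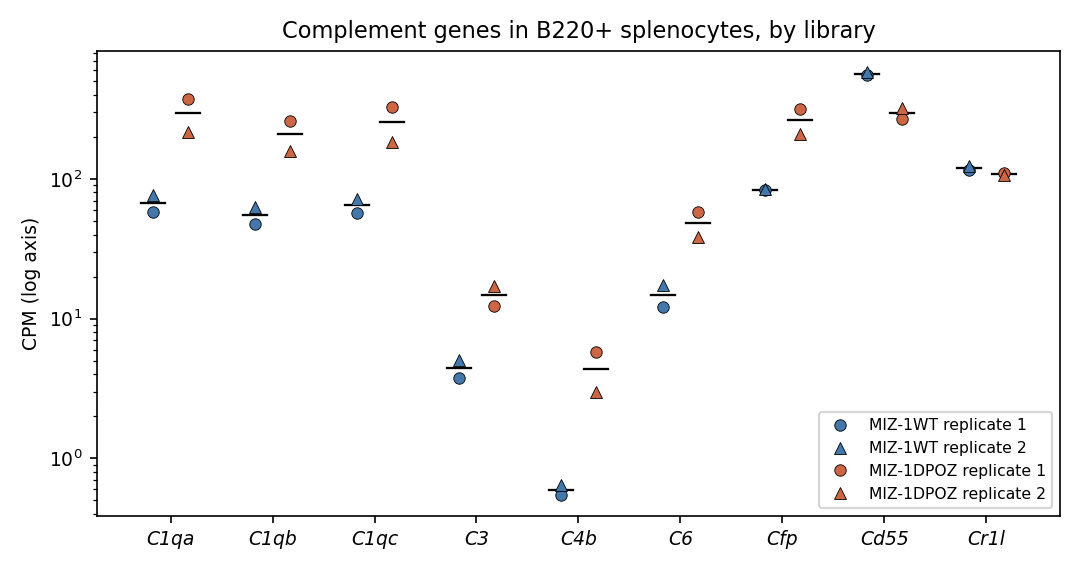
CPM of the 9 complement genes in each library on a log axis, with circles for replicate 1, triangles for replicate 2 and a black line at the mean of the 2 libraries of a genotype. From C1qa to Cfp the MIZ-1DPOZ points lie above the MIZ-1WT points, for Cd55 below them, and for Cr1l the 4 points lie between 106 and 123 CPM.

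C1q is built from an A, a B and a C chain, and it binds antibody complexes and dying cells. The genes lie next to each other on the minus strand of chromosome 4, C1qb from 136880129 to 136886187, C1qc from 136889804 to 136893065 and C1qa from 136895917 to 136898803 (GRCm38), a span of 0.0187 Mb. C1qa (ENSMUSG00000036887) had 2512 and 3207 counts in MIZ-1WT and 17763 and 9524 counts in MIZ-1DPOZ, which is 57.6 and 76.3 CPM against 373 and 217 CPM. The lower MIZ-1DPOZ library was thus still well above the higher MIZ-1WT library. The means were 66.9 ± 13.2 CPM (SD, n = 2) and 295 ± 110 CPM (SD, n = 2), and the log2 fold change was 2.14 (standard error 0.27, 95% interval 1.46 to 2.82, edgeR adjusted p = 0.00349).

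C1qb (ENSMUSG00000036905) gave 47.5 and 62.8 CPM in MIZ-1WT and 260 and 159 CPM in MIZ-1DPOZ, from 2073, 2640, 12387 and 7000 counts. C1qc (ENSMUSG00000036896) gave 57.4 and 72.4 CPM in MIZ-1WT and 328 and 184 CPM in MIZ-1DPOZ, from 2506, 3044, 15618 and 8097 counts. As for C1qa, MIZ-1DPOZ replicate 1 was the highest of the 4 libraries for both genes and MIZ-1WT replicate 1 the lowest. The log2 fold change was 1.93 for C1qb (standard error 0.25, edgeR adjusted p = 0.00369) and 1.98 for C1qc (standard error 0.28, edgeR adjusted p = 0.00454). All of the C1q chains therefore rose about 4-fold, with folds of 4.41, 3.81 and 3.95 for the A, B and C chain.

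The balance between the chains moved less than their level. C1qb amounted to 0.825 and 0.823 of the C1qa CPM in the MIZ-1WT libraries and to 0.697 and 0.735 in the MIZ-1DPOZ libraries. For C1qc the ratio to C1qa was 0.998 and 0.949 in MIZ-1WT and 0.879 and 0.85 in MIZ-1DPOZ. Both ratios were lower in MIZ-1DPOZ in each library, a difference that was not tested.

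A macrophage marker list was measured beside the C1q genes. It holds 17 genes, among them Adgre1, Csf1r, Vcam1, Spic and Cd5l. Like the other marker lists here, it was chosen with earlier results of these data known, so its counts are a description. All 17 were tested and higher in MIZ-1DPOZ, against 21.1% of all tested genes. Their log2 fold changes ran from 1.67 to 3.50 with a median of 2.02, and none was at 0 in all libraries. Their summed level was 885 and 1178 CPM in MIZ-1WT and 5334 and 3341 CPM in MIZ-1DPOZ. Relative to this sum, C1qa was at 6.51% and 6.48% in MIZ-1WT and at 7.0% and 6.49% in MIZ-1DPOZ, so that the genotypes overlapped. The corresponding share of C1qc was 6.49% and 6.15% in MIZ-1WT and 6.15% and 5.52% in MIZ-1DPOZ, and again the genotypes were not separated. For C1qb it was 5.37% and 5.33% against 4.88% and 4.77%, somewhat lower in both MIZ-1DPOZ libraries. The C1q genes and the summed macrophage markers ranked the 4 libraries in the same order, although the share of C1qb separated the genotypes. Vcam1 was the largest part of that sum, with 265 and 345 CPM in MIZ-1WT and 1515 and 899 CPM in MIZ-1DPOZ. The part of macrophage RNA in the C1q differences was not tested.

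**Figure D2:**
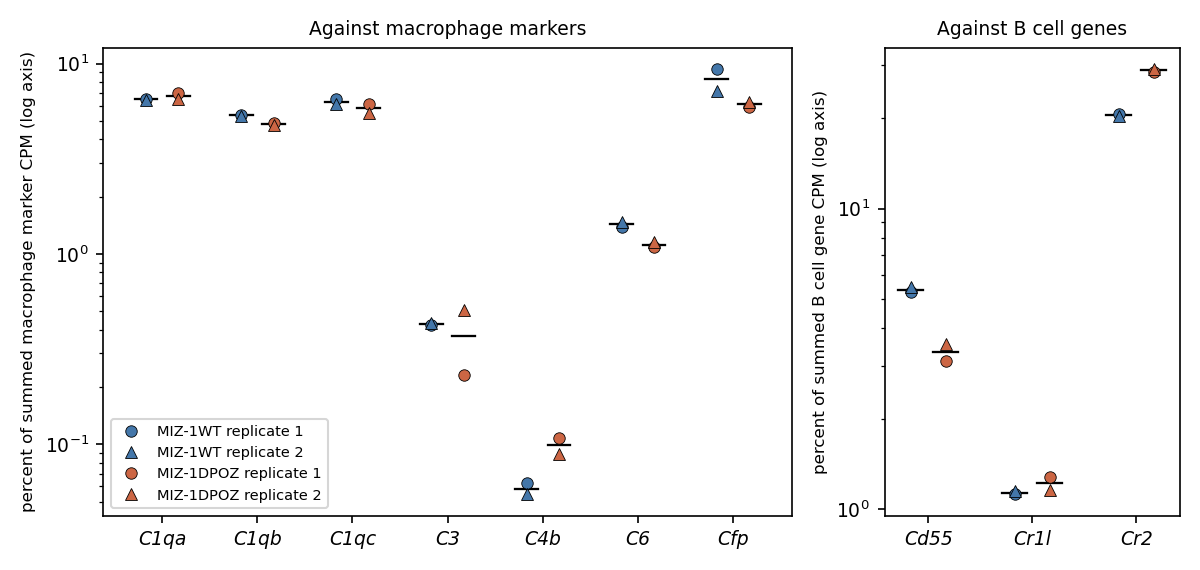
Left, CPM of 7 complement genes as a percent of the summed CPM of 17 macrophage markers; right, CPM of Cd55, Cr1l and Cr2 as a percent of the summed CPM of 9 B cell genes, both on log axes, with one point per library and a line at the mean of a genotype. C1qa stays between 6.48% and 7.0% in all libraries, C4b lies higher and C6 and Cfp lie lower in MIZ-1DPOZ, and on the right Cd55 falls from 5.28% and 5.47% to 3.11% and 3.54%.

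The genes whose profile over the 4 libraries was most like the mean of the C1q chains were sought among 8759 tested genes with a mean of at least 10 CPM, by Euclidean distance of log2 CPM centred on each gene. The nearest were Vcam1 (distance 0.03), an adhesion molecule and a member of the macrophage list, Ptgs1 (0.06), which encodes cyclooxygenase 1, Dgki (0.08), a diacylglycerol kinase, Tlr8 (0.08), a receptor for single-stranded RNA in endosomes, and App (0.10), the amyloid precursor protein. With 4 libraries in 2 groups, many genes share such a profile, and it is given as a description. The C1q cluster and Zbtb17 lie on the same chromosome, 4.55 Mb apart. Of the 47 tested genes between them, 11 were higher and 6 were lower in MIZ-1DPOZ, a called share of 36.2% against 40.0% of all tested genes, and their median log2 fold change was -0.05.

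Promoter sequences were read from the RefSeq table of GRCm38.p6 for 7 of the 9 genes; C1qa and C4b had no entry. The 250 bases before the start were searched on both strands for GAGGAA, the core letters bound by PU.1, a factor of myeloid and B cells, and for CACGTG, the E-box bound by MYC and MAX. GAGGAA was present in 2 of the 7 windows (C1qb and C1qc), against 23.3% of the 32851 windows of the table, and CACGTG in 0 of 7, against 6.02%. Of the 250 bases, 151 lie inside the gene as annotated for C1qc, 35 for C6 and 16 for Cr1l. C1qb is shown for the rising C1q cluster, Cfp for the rising genes outside it and Cd55 for the gene that fell. The windows are on the minus strand, at chr4:136886201-136886450 for C1qb, chrX:20931556-20931805 for Cfp and chr1:130462745-130462994 for Cd55, and are printed 5′ to 3′ along the gene with GAGGAA in capitals.
C1qb: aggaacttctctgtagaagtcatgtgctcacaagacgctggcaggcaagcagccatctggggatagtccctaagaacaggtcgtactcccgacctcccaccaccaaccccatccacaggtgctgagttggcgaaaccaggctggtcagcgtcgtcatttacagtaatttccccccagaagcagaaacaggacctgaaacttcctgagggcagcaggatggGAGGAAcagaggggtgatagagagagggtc
Cfp: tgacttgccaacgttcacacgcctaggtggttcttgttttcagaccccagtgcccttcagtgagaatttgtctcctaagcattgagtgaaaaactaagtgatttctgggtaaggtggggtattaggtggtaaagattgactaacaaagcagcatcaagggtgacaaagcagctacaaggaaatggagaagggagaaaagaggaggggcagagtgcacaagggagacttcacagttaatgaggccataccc
Cd55: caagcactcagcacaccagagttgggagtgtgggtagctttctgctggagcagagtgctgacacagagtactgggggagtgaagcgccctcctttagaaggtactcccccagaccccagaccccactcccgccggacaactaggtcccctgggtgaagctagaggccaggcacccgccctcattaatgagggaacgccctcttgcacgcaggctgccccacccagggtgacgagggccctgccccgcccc
The match in C1qb begins 30 bases before the start, and the Cfp and Cd55 windows hold neither motif. The GC content was 55.2% for C1qb, 46.8% for Cfp and 64.0% for Cd55. A match of 6 letters is a description of the sequence and not a measured site.

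C4 is cleaved by C1s and joins C2 in the C3 convertase of the classical and lectin pathways. C4b (ENSMUSG00000073418, chromosome 17, 34728380 to 34743882, minus strand) had the largest fold change among the 9 genes and the lowest level. Its counts were 24 and 27 in MIZ-1WT and 274 and 131 in MIZ-1DPOZ, or 0.55 and 0.642 CPM against 5.76 and 2.98 CPM. The groups were far apart, although the MIZ-1DPOZ libraries also differed from each other. The mean rose from 0.596 ± 0.0652 CPM (SD, n = 2) to 4.37 ± 1.96 CPM (SD, n = 2), with a log2 fold change of 2.87 (standard error 0.39, 95% interval 1.91 to 3.83, edgeR adjusted p = 0.00404). C4b shares long stretches of near-identical sequence with C4a. Reads without a unique alignment were not counted on genes, so the level of C4b may be too low. C4a itself had 61, 47, 91 and 74 counts, with a log2 fold change of 0.51 (edgeR adjusted p = 0.12), and was not called.

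C3, whose cleavage is the central step of complement, is encoded by C3 (ENSMUSG00000024164, chromosome 17, 57203970 to 57228136, minus strand). It had 164 and 214 counts in MIZ-1WT and 588 and 747 counts in MIZ-1DPOZ, or 3.76 and 5.09 CPM against 12.4 and 17.0 CPM. Here MIZ-1DPOZ replicate 2 was the highest library, unlike for the other 6 genes that rose. The log2 fold change was 1.73 (standard error 0.22, 95% interval 1.20 to 2.26, edgeR adjusted p = 0.00323). Relative to the macrophage markers, C3 was at 0.425% and 0.432% in MIZ-1WT and at 0.232% and 0.509% in MIZ-1DPOZ, with one library of MIZ-1DPOZ below and one above both MIZ-1WT libraries. C4b was at 0.0622% and 0.0545% of the same sum in MIZ-1WT and at 0.108% and 0.0893% in MIZ-1DPOZ, higher in both, and this difference was not tested. C2, the partner of C4 in the convertase, gave 81, 124, 847 and 408 counts, with a log2 fold change of 2.50 (edgeR adjusted p = 0.00547), and overlaps Zbtb12 and Gm20547.

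Properdin, the product of Cfp, stabilizes the C3 convertase of the alternative pathway. Cfp (ENSMUSG00000001128, chromosome X, 20925454 to 20931555, minus strand) had 3619 and 3567 counts in MIZ-1WT and 15106 and 9206 counts in MIZ-1DPOZ. In CPM these were 83.0 and 84.9 against 317 and 210. The MIZ-1WT libraries were nearly equal, and both MIZ-1DPOZ libraries were well above them. The mean rose from 83.9 ± 1.35 CPM (SD, n = 2) to 264 ± 76.1 CPM (SD, n = 2), a log2 fold change of 1.65 (standard error 0.19, 95% interval 1.19 to 2.11, edgeR adjusted p = 0.00254). Since Cfp is X-linked, the 479 tested X-linked genes were set beside it: 70 were higher (14.6%) and 81 were lower in MIZ-1DPOZ, their median log2 fold change was -0.02, and 15 had a log2 fold change above that of Cfp. As a share of the summed macrophage markers, Cfp was at 9.38% and 7.2% in MIZ-1WT and at 5.95% and 6.28% in MIZ-1DPOZ. Cfb, the protease precursor of the same convertase, had 12, 9, 75 and 33 counts and passed the filter through MIZ-1DPOZ alone; its log2 fold change was 2.24 (edgeR adjusted p = 0.0161), and it overlaps Gm20547.

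C6 joins the membrane attack complex after C5b. The gene (ENSMUSG00000022181, chromosome 15, 4727175 to 4814967, plus strand) had 532 and 731 counts in MIZ-1WT and 2768 and 1690 counts in MIZ-1DPOZ, or 12.2 and 17.4 CPM against 58.2 and 38.5 CPM. Both MIZ-1DPOZ libraries were above both MIZ-1WT libraries. The log2 fold change was 1.71 (standard error 0.24, 95% interval 1.11 to 2.31, edgeR adjusted p = 0.00478). None of the other terminal components was called: C7 and C8b had no count in any library, C9 at most 1 count and Hc, the gene of C5, at most 2 counts. C8a had 11, 14, 46 and 19 counts (log2 fold change 1.26, edgeR adjusted p = 0.0914), and C8g had 37, 22, 33 and 16 counts (log2 fold change -0.37, edgeR adjusted p = 0.532), with Fbxw5 overlapping it on the opposite strand. Counts of 0 cannot exclude a level below 3 counts, which is between 0.063 and 0.0714 CPM in these libraries. C6 was at 1.38% and 1.48% of the summed macrophage markers in MIZ-1WT and at 1.09% and 1.15% in MIZ-1DPOZ.

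CD55, or decay accelerating factor, takes C3 convertases apart on the cell surface. Cd55 (ENSMUSG00000026399, chromosome 1, 130439027 to 130462744, minus strand) was the only one of the 9 genes to fall. It had 24023 and 24547 counts in MIZ-1WT and 12828 and 14164 counts in MIZ-1DPOZ, or 551 and 584 CPM against 270 and 323 CPM. The libraries of a genotype were close to each other and the genotypes were separated. The mean went from 567 ± 23.6 CPM (SD, n = 2) to 296 ± 37.6 CPM (SD, n = 2), a fold of 0.522, with a log2 fold change of -0.94 (standard error 0.09, 95% interval -1.17 to -0.71, edgeR adjusted p = 0.00183). Gm16083 overlaps Cd55 on the opposite strand, and the neighbouring copy Cd55b had only 17, 16, 7 and 9 counts (log2 fold change -1.12, edgeR adjusted p = 0.0716).

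A list of B cell genes was measured beside Cd55. It was summed without Cd79a, whose promoter drives the Cre. Of its 9 genes, 7 were lower in MIZ-1DPOZ and 2 were not called, with a median log2 fold change of -0.25. Their summed level, 10425 and 10682 CPM in MIZ-1WT and 8662 and 9119 CPM in MIZ-1DPOZ, was above that of the macrophage markers in each library, by the smallest margin in MIZ-1DPOZ replicate 1. The share of Cd55 in their summed level was 5.28% and 5.47% in MIZ-1WT and 3.11% and 3.54% in MIZ-1DPOZ, so Cd55 was lower relative to these genes as well. Markers of follicular B cells fell in 3 of 5 tested genes (median log2 fold change -0.51, summed level 1925 and 2002 CPM against 1491 and 1592 CPM). Those of marginal zone B cells rose in 6 of 6 (median 0.91, summed level 536 and 533 CPM against 926 and 999 CPM). The counts for the B cell, follicular and marginal zone lists stand beside 18.9% of all tested genes lower and 21.1% higher. The part of a shift between B cell subsets in the Cd55 difference was not tested. The profiles nearest to Cd55 were those of the transcription factor gene Hhex (distance 0.06, log2 fold change -0.95), Rnf144a (0.06, -0.88), Aff3 (0.06, -0.97), St3gal1 (0.08, -0.88) and Klf2 (0.08, -0.92), a transcription factor of lymphocyte trafficking.

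CRRY, the product of Cr1l, is the rodent regulator that acts as a cofactor for cleavage of C3b and C4b. Cr1l (ENSMUSG00000016481, chromosome 1, 195097382 to 195131586, minus strand) had 5075 and 5177 counts in MIZ-1WT and 5296 and 4660 counts in MIZ-1DPOZ. This was 116 and 123 CPM against 111 and 106 CPM, so the libraries of the genotypes lay close together without overlapping. The log2 fold change was -0.14 (standard error 0.05, 95% interval -0.27 to -0.01, edgeR adjusted p = 0.0845), and the gene was not called. When libraries were scaled to the B cell genes instead, its log2 fold change was 0.11 (edgeR adjusted p = 0.239), so its sign depends on the scaling. On a log2 scale the intervals of Cd55 and Cr1l, both membrane regulators of the C3 convertase on chromosome 1, did not overlap.

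**Figure D3:**
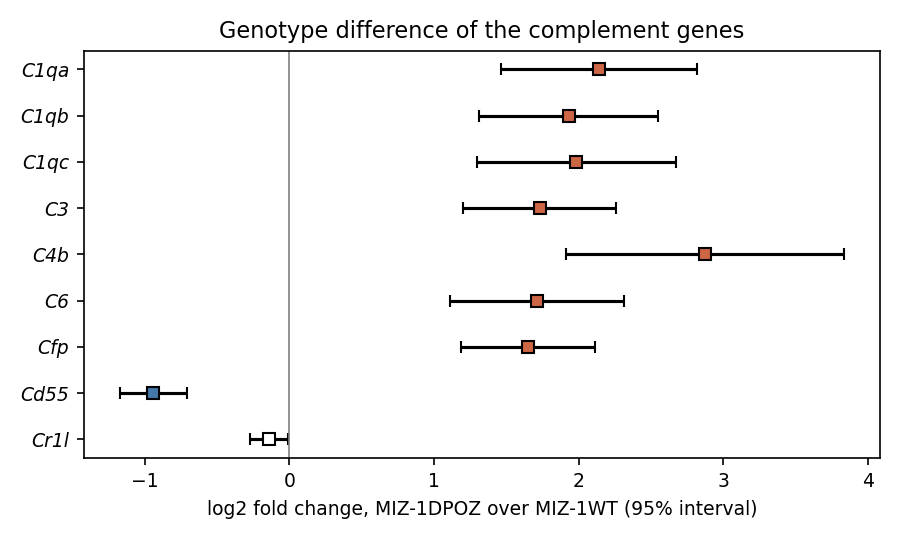
Log2 fold change of MIZ-1DPOZ over MIZ-1WT for the 9 complement genes, with bars for the 95% interval from edgeR's fit on 2 libraries per genotype; filled squares passed an adjusted p of 0.05 and the open square did not. The values run from 2.87 for C4b to -0.94 for Cd55, and the interval of Cr1l, -0.27 to -0.01, lies closest to 0.

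Levels of different genes were compared as CPM per kb of the gene's joined exons in the GENCODE annotation. In MIZ-1WT, Cd55 was the most abundant of the 9 transcripts at 113 and 120 CPM per kb, ahead of C1qa at 55.4 and 73.4. Cfp (47.8 and 48.9 CPM per kb) and C1qb (43.7 and 57.7) changed places between the MIZ-1WT libraries. C1qb was below C1qa in each library, although their ranges overlapped across libraries. C1qc followed at 29.8 and 37.5 CPM per kb, then Cr1l at 11.2 and 11.9. C6, C3 and C4b were the lowest in that order, with C6 at 3.43 and 4.89 CPM per kb, C3 at 0.731 and 0.99 and C4b at 0.0966 and 0.113.

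In MIZ-1DPOZ the order changed at the top, and C1qa was first at 359 and 209 CPM per kb. C1qb (239 and 147), Cfp (183 and 121) and C1qc (170 and 95.5) came next, in this order in each library. From C1qa to C1qc the ranges of neighbours overlapped only across libraries. Cd55, at 55.5 and 66.5 CPM per kb, came after all of the C1q genes and Cfp. C6 reached 16.4 and 10.8 CPM per kb and Cr1l 10.8 and 10.3, so C6 was above Cr1l in each library. C3 (2.40 and 3.31) and C4b (1.01 and 0.524) remained the lowest. In both genotypes the C4b level leaves out reads shared with C4a.

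Replicates of MIZ-1DPOZ differed in the same direction for 6 of the 7 genes that rose. From MIZ-1DPOZ replicate 1 to replicate 2, log2 CPM differed by -0.78 for C1qa, -0.71 for C1qb, -0.83 for C1qc, -0.94 for C4b, -0.59 for C6 and -0.60 for Cfp, and the summed macrophage markers by -0.67. C3 differed by 0.46, Cd55 by 0.26 and Cr1l by -0.07. In MIZ-1WT the same difference was positive for all 9 genes and ranged from 0.03 for Cfp to 0.51 for C6, and it was 0.41 for the macrophage markers. C3, the gene apart from the other 6 that rose, was also set beside monocyte markers, chosen after its values were seen. Their sum was 82.8 and 75.4 CPM in MIZ-1WT and 166 and 306 CPM in MIZ-1DPOZ. Of these markers 3 of 5 rose, against 21.1% of all tested genes, with none at 0 in all libraries. Most of the monocyte sum was Lyz2, with 44.3 and 41.8 CPM in MIZ-1WT and 112 and 225 CPM in MIZ-1DPOZ. From replicate 1 to replicate 2 this sum differed by -0.14 in MIZ-1WT, where C3 differed by 0.43, and by 0.89 in MIZ-1DPOZ, where C3 differed by 0.46. Neutrophil and erythroid marker sums were also higher in MIZ-1DPOZ replicate 2, by 1.02 and 1.52. The part of RNA from any of these cells in the C3 level was not tested.

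**Figure D4:**
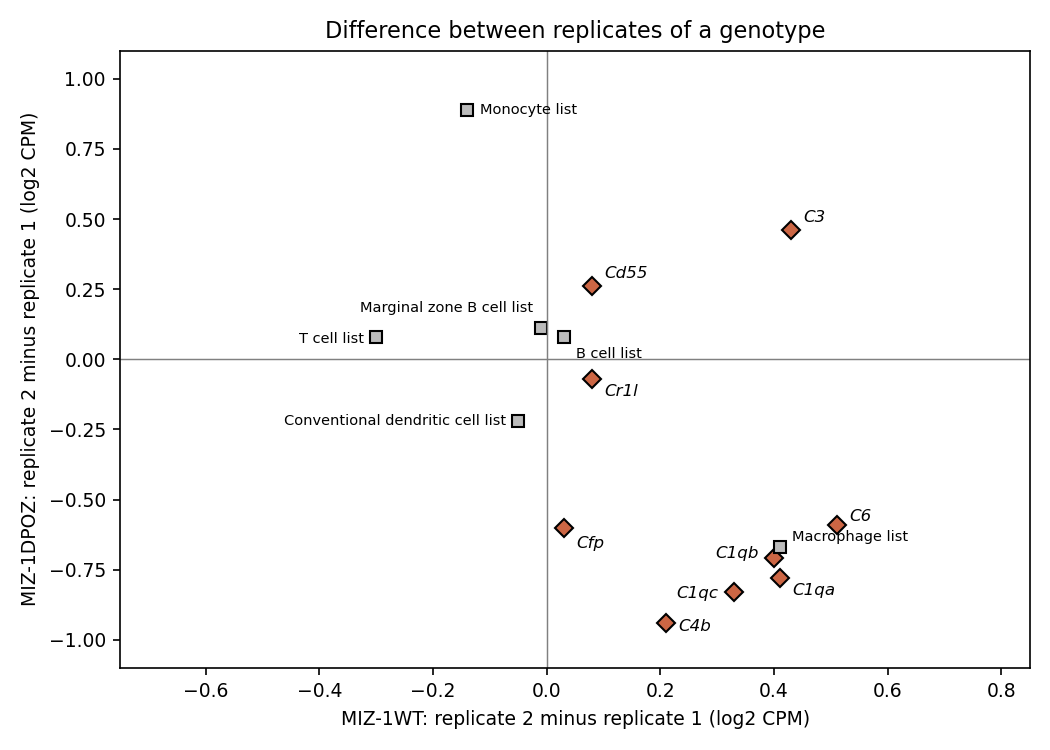
Difference of replicate 2 from replicate 1 in log2 CPM, in MIZ-1WT on the horizontal axis and in MIZ-1DPOZ on the vertical axis; diamonds are the 9 complement genes and grey squares are the summed CPM of marker lists. The C1q genes, C4b and C6 lie near the macrophage list at the lower right, C3 lies at the upper right, and Cd55 and Cr1l lie near the B cell list close to 0.

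A wider list of 53 complement genes, also chosen with earlier results of these data known, was then followed to place the 9 genes. All 53 were in the table, 10 of them at 0 in every library, and 30 were tested, of which 18 were higher and 1 (Cd55) was lower in MIZ-1DPOZ, with a median log2 fold change of 1.37. Over all tested genes, 21.1% were higher and 18.9% were lower, with a median of -0.01. Leaving out the 9 genes, 21 were tested, 11 were higher, 0 were lower and 10 were not called. Several genes of the list passed the filter only through high counts in MIZ-1DPOZ; of the 15 with at least 10 counts in both MIZ-1WT libraries, 7 were higher and 8 were not called.

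Among the recognition molecules, Fcna, the gene of ficolin A, a lectin of spleen and liver macrophages, rose as well. Its counts were 1903 and 2913 in MIZ-1WT and 18669 and 7250 in MIZ-1DPOZ, with a log2 fold change of 2.30 (standard error 0.44, edgeR adjusted p = 0.0109), and Fcnaos overlaps it on the opposite strand. It was at 4.93% and 5.88% of the macrophage markers in MIZ-1WT and at 7.35% and 4.94% in MIZ-1DPOZ, so the genotypes overlapped. Mbl1, Mbl2 and Colec10, which encode other lectins of that pathway, and the protease gene Masp1 had no count in any library. Colec11 had 3, 7, 5 and 11 counts, Fcnb 0, 0, 2 and 4 and the protease gene Masp2 5, 10, 3 and 9, and none of them was tested. The proteases that C1q activates were scarce: C1ra had 17, 6, 48 and 21 counts (log2 fold change 1.47, edgeR adjusted p = 0.0935), C1s1 at most 5 counts and C1rb none.

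Of the 6 membrane regulators tested, with Cd55 and Cr1l included, 1 was higher and 1, Cd55, was lower. Over all tested genes 21.1% were higher and 18.9% were lower. The rest of the membrane regulators were not called or not tested. Cd59a, whose product blocks the membrane attack complex, had 22 and 28 counts in MIZ-1WT and 215 and 190 counts in MIZ-1DPOZ, with a log2 fold change of 2.91 (standard error 0.22, edgeR adjusted p = 0.00105). It is named here after its values were seen, as the only membrane regulator of the list that rose. Cd59b, its neighbouring copy, had 19, 10, 44 and 26 counts (log2 fold change 1.17, edgeR adjusted p = 0.0746). Cd46, a cofactor for cleavage of C3b, had 165, 158, 176 and 162 counts (log2 fold change -0.03, edgeR adjusted p = 0.888), and several noncoding genes overlap it. Clu, the gene of the soluble regulator clusterin, had 8, 16, 12 and 11 counts (log2 fold change -0.16, edgeR adjusted p = 0.818).

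Among the receptors, 6 of 8 rose, and 4 of the 6 with at least 10 counts in both MIZ-1WT libraries, against 21.1% of all tested genes. Cr2, which encodes CD21 and CD35, the receptors for C3 fragments on B cells, was the most abundant gene of the list, with 2148 and 2170 CPM in MIZ-1WT and 2472 and 2657 CPM in MIZ-1DPOZ. Its log2 fold change was 0.25 (standard error 0.06, edgeR adjusted p = 0.0282), and its share of the summed B cell genes was 20.6% and 20.3% against 28.5% and 29.1%. Cr2 lies beside Cr1l on chromosome 1, from 195136811 to 195176716, and only Cr2 was called. Itgb2, the shared beta chain of complement receptors 3 and 4, had a log2 fold change of 0.39 (edgeR adjusted p = 0.0108), and Itgax, the alpha chain of receptor 4, one of 1.16 (edgeR adjusted p = 0.015).

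**Figure D5:**
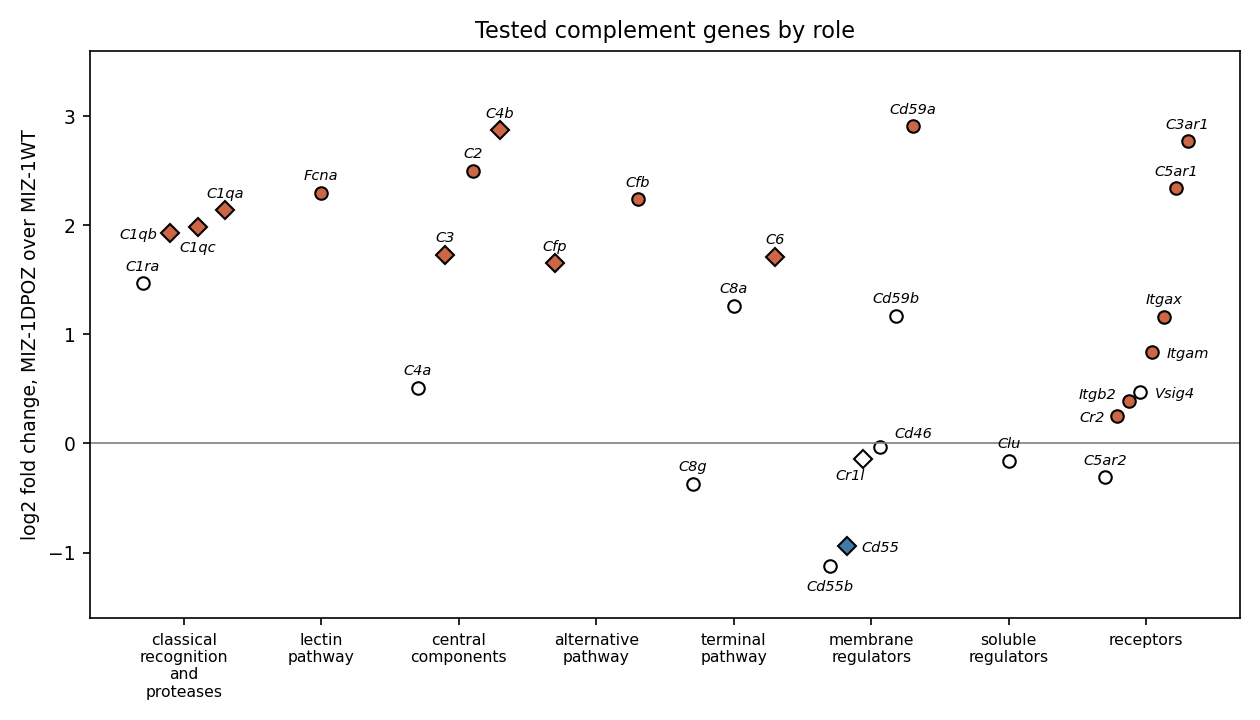
Log2 fold change of MIZ-1DPOZ over MIZ-1WT for tested genes of the wider complement list, grouped by role; diamonds are the 9 complement genes, circles the others, filled symbols were called and open symbols were not. The recognition molecules, central components and alternative pathway genes lie above 0, and the membrane regulators range from -1.12 for Cd55b, not called, to 2.91 for Cd59a.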

How the data were processed

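RNA-seq of B220+ splenocytes was analysed from the raw counts per Ensembl gene that the authors deposited, 4 libraries in 2 genotypes. Per the study's methods, ribosomal RNA was depleted, stranded libraries were sequenced from both ends, and reads were trimmed with Trimmomatic, mapped to mm10 with TopHat2 (version 2.1.0 in the submitters' processing notes) and counted with HTSeq. The strand setting and the Ensembl release are not given in the sources used here, so genes that overlap others are uncertain. No normalization or pooling had been applied to the deposited counts. HTSeq summary lines were left out of library sizes: reads outside genes made up 21.1% to 27.2% of the table, ambiguous reads 0.281% to 0.302% and reads without a unique alignment 42.8% to 44.1%. The count table held 0 unused sample columns. Symbols were found for 40340 of 41214 genes.

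Genes reaching 10 counts in 2 or more libraries entered the test with edgeR 4.0.16 in R 4.3.3 (TMM, quasi-likelihood test, genotype as the only term, common dispersion 0.00848), with Benjamini-Hochberg adjustment over 14554 genes. Log2 CPM used a prior count of 2. Intervals are 95%, with standard errors derived from the F statistic of this test. In edgeR the spread of a gene is estimated from 2 libraries per genotype and drawn towards that of the other tested genes. Counts were simulated for this comparison over 14351 genes, with 200 changed and the common dispersion of 0.00848 for every gene. Recovery was 90% with 4 false calls among 184 for edgeR, and 85% with 6 among 176 for DESeq2 1.42.0. Genes whose replicates differ more than this dispersion allows are not covered by these rates. Among them are C1qa, C1qc and C4b, with log2 differences of -0.78, -0.83 and -0.94 between MIZ-1DPOZ replicates. The simulation also changed a far smaller share of genes than the 40.0% called in the data.

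The complement genes, the wider complement list, the motifs and the marker lists were chosen with earlier results of these data known. All 9 genes were named. From each role of the wider list, up to 3 tested genes with the highest mean CPM were named, together with the 5 profiles nearest to the C1q chains and to Cd55; C1ra, C1s1, C1rb, Colec11, Fcnb, Masp2, Hc, C7, C8b, C9, Mbl1, Mbl2, Colec10, Masp1, C4a, Cd55b, Cd59a and Cd59b were added after their values were seen. One gene that meets the rule is not reported here, in the text or the figures. Alternatives were DESeq2's size factors, its Wald test, other filters on counts, a replicate block, removal of 199 immunoglobulin segments, the study's limits, and leaving out each library. The study's limits, 0.6 on the log2 scale and a p of 0.05, were read here as an unadjusted p under 0.05. The study prints the sign as above 0.05 and also names a Benjamini-Hochberg correction. Scaling to the B cell genes was chosen after seeing the data. Replicate numbers gave no sign of pairing the libraries (correlation of same-numbered deviations -0.0688 over 14554 genes). With 2 libraries per genotype this is a single value, and it cannot exclude pairing.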

Additional observations from a re-analysis of the deposited data

How the results depend on the processing

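Over the 12 alternatives, 7 of the 9 complement genes were higher and 1 was lower in each, except under a mean of at least 30 RPM, where C3 and C4b were not tested and 5 were higher and 1 was lower. The log2 fold changes ranged from 1.71 to 2.50 for C1qa, 1.54 to 2.26 for C1qb, 1.52 to 2.36 for C1qc, 1.50 to 1.97 for C3, 2.33 to 3.29 for C4b, 1.39 to 2.00 for C6, 1.33 to 1.94 for Cfp and -1.05 to -0.69 for Cd55, and the highest edgeR or DESeq2 adjusted p among them was 0.0409 (C1qc). Cr1l ranged from -0.18 to 0.11 with adjusted p from 0.0598 to 0.382, and its sign turned to 0.11 when libraries were scaled to the B cell genes. That scaling shifted the median of all tested genes to 0.24 and gave 5898 genes higher and 776 lower, against 3076 and 2746 with TMM; 7 complement genes were higher and 1 was lower under it, with Cd55 at -0.69.

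Of the wider complement list, 8 genes were higher when a mean of 30 RPM was required (10 of them tested), and 2 were lower under the study's limits. Leaving out each library gave 10 to 18 higher, the lowest without MIZ-1WT replicate 1; this leaves 3 libraries, and the lone library of a genotype is assumed to vary like the others. The counts over all genes were 1374 higher and 848 lower without MIZ-1WT replicate 1, 1728 and 1115 without MIZ-1WT replicate 2, and 1464 and 1282 under a mean of at least 30 RPM, where 6052 genes were tested. With the replicate block, 7 complement genes were higher and 1 was lower, and 19 of the wider list were higher and 1 was lower. The replicate numbers did not pair the libraries. With 2 libraries per genotype the spread rests on few values, and MIZ-1DPOZ replicates differed more (chi-square per degree of freedom 21.9) than MIZ-1WT replicates (9.79). For C4b in MIZ-1WT, counts of 24 and 27 limit the precision.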

Other observations

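Marker lists of other cell types of the spleen were summed in each library. Plasmacytoid dendritic cells, which carry B220 themselves, gave 869 and 809 CPM in MIZ-1WT and 657 and 682 CPM in MIZ-1DPOZ, but most of this sum was Ly6d, which fell (794 and 738 CPM against 580 and 623 CPM). Without Ly6d the sum was 74.7 and 70.6 CPM against 77.8 and 59.5 CPM, with overlapping genotypes, and 1 of 5 rose (Pacsin1). Conventional dendritic cell markers gave 21.0 and 20.3 CPM against 34.1 and 29.2 CPM, and 3 of 6 rose. T cell markers gave 69.2 and 56.2 CPM against 75.5 and 79.7 CPM, and 2 of 8 rose. The sum of neutrophil markers was 14.6 and 4.57 CPM against 8.95 and 18.2 CPM, with overlapping genotypes. Of the neutrophil genes with at least 10 counts in both MIZ-1WT libraries 0 of 2 were higher, and the 2 called of 8 tested passed the filter through MIZ-1DPOZ, against 21.1% of all tested genes higher. By edgeR those 2 without a call, S100a8 and S100a9, had adjusted p-values of 0.711 and 0.933. Stromal and endothelial markers gave 322 and 325 CPM against 303 and 303 CPM, mostly Pecam1, which fell (308 and 310 CPM against 253 and 264 CPM). Without Pecam1 they gave 13.6 and 15.5 CPM against 50.4 and 39.3 CPM, and 1 of 3 tested rose, Stab2, a scavenger receptor of sinusoidal endothelium (10.3 and 12.3 CPM against 46.5 and 34.9 CPM, log2 fold change 1.85). Erythroid markers gave 48.0 and 59.4 CPM against 38.2 and 109 CPM, with none of 7 called.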
